A study of Mus musculus with 9 samples.

Results

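The integrin and laminin chain genes are the genes that encode the subunits of the integrins, the receptors by which epithelial cells hold on to matrix, and of the laminins, the trimeric glycoproteins that form the epithelial basement membrane. They were taken by gene symbol from the deposited gene tables of mouse duodenal organoids, and 37 of the 46517 genes listed were members, with 18 integrin alpha chains, 8 integrin beta chains and 11 laminin chains. RNA sequencing covered 9 cultures of wild type C57BL/6J duodenal organoids, grown from crypts in Matrigel with conditioned medium. By the study's methods, the organoids were cultured below atmospheric oxygen. Their medium held inhibitors of ROCK and of the TGF-β receptor kinase, with nicotinamide as well after transduction. The 3 arms were Ad-GFP (the control virus), Ad-hHIF2 and Ad-hHIF1, with 3 samples in each. The Ad-hHIF1 and Ad-hHIF2 adenoviruses carry human HIF alleles that escape prolyl hydroxylation, so that the protein is stable in normal oxygen, and all 9 cultures had received an adenovirus. Transduction was transient, there was no culture without virus, and the replicates carry the numbers 1, 3 and 4. The study calls them biological replicates, while the labels do not say whether they came from separate mice, so that the p-values measure the spread between these cultures.

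A laminin is built from an alpha, a beta and a gamma chain, which assemble inside the cell before secretion. Lama5 is the main alpha chain of mature intestinal epithelium and joins Lamb1 or Lamb2 and Lamc1, whereas Lama3 and Lamb3 belong to the laminin of hemidesmosomes. An integrin is a pair of an alpha and a beta chain. Itga3, Itga6 and Itga7 chains make laminin receptors, Itga1 and Itga2 collagen receptors, and Itga5 and Itgav receptors of fibronectin and related ligands, while Itgb2 and Itgb7 are best known from leukocytes. HIF1 and HIF2 are oxygen-regulated transcription factors, and the comparisons below ask how the transcripts of these chains differed when either was overexpressed. Matrigel is itself a laminin-rich extract, but it is protein, and only transcripts of the organoids were counted here.

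The deposited expected counts summed to 21722618 to 51119041 per library. They were scaled by library size to CPM with edgeR's TMM factors, which ran from 0.907 to 1.31, the highest in Ad-hHIF2 replicate 1. Transgene reads are of human sequence and are counted here where the software placed them on the mouse genes. The mouse HIF2α gene, Epas1, was at 758, 604 and 654 CPM in the Ad-hHIF2 samples and 1.64, 1.47 and 2.199 CPM in the Ad-GFP samples. Hif1a was at 308, 319 and 299 CPM in the Ad-hHIF1 samples and 198, 210.3 and 251 CPM in the Ad-GFP samples, so its groups did not overlap but lay close together. Of 11 epithelial markers, Krt8, Krt18 and Krt19 were each between 764 and 1358 CPM in every sample and Cdh1 between 204 and 352 CPM. Epcam did not exceed 3.80 CPM, Vil1 4.94 CPM and Cdx2 8.99 CPM, Cdx1 was at 0 in all 9 samples, and the stem cell marker Lgr5 and the enterocyte markers Alpi, Fabp1 and Sis were at or below 1.19 CPM. The highest of the 6 stem and crypt markers was Sox9, at 2.26 to 11.9 CPM, and of the 8 enterocyte markers Apoa4, at up to 2.81 CPM, and Anpep, at up to 2.21 CPM. Krt20, a keratin of differentiated intestinal epithelium, was between 34.3 and 53.3 CPM in every sample, Cldn3 between 9.48 and 17.1 CPM and Cldn7 between 1.31 and 2.32 CPM. The libraries therefore carried keratins, Krt20 among them, and E-cadherin, while most of the other intestinal markers measured were low or absent. Ad-hHIF1 replicate 3 stood apart in a sum over 1625 olfactory, vomeronasal and trace amine receptor genes, which were taken as normally silent. The sum was 452 CPM there, against 30.7 to 153 CPM in the other 8 samples.

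In Ad-hHIF2 organoids, more integrin and laminin chain genes were called higher than lower against Ad-GFP, and the largest rises were those of Lamb1 and Lama3. Of the 37 members, 25 had enough counts for edgeR's quasi-likelihood test and 12 had too few. At an adjusted p below 0.05 (Benjamini-Hochberg, over all 14987 genes tested), 12 members were higher and 2 lower. Over all genes tested, 15.9% were higher and 13.6% lower by the same rule. With at least a 2-fold change in addition, 3 members were higher (Lamb1, Lama3 and Itga7) and 2 lower (Itgb7 and Itga4), beside 2.90% and 3.83% of all genes. All 3 Ad-hHIF2 samples lay above all 3 Ad-GFP samples for 14 members, beside 23.4% of all genes, and below them for 5 members, beside 22.4%. The median log2 fold change of the 25 members was 0.31, against -0.01 over all genes tested. By class, 5 laminin chains were higher and 0 lower of 7 tested, 5 integrin alpha chains were higher and 1 lower of 10, and 2 integrin beta chains were higher and 1 lower of 8. Without Ad-hHIF2 replicate 1, the library with the highest scaling factor, 11 members were higher and 1 lower, beside 1800 higher and 1330 lower of all 15791 genes tested in that fit.

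**Figure D1:**
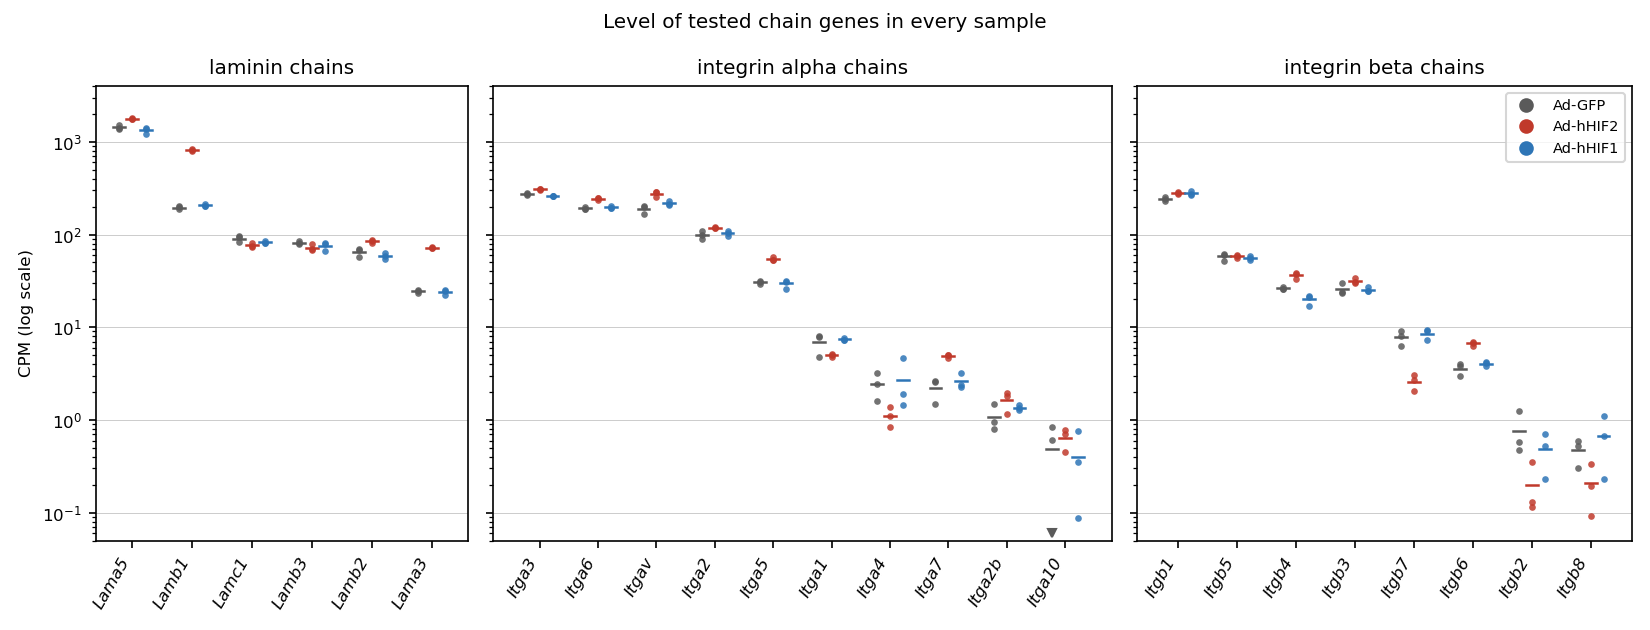
CPM on a log scale for tested members in each of the 9 samples, ordered within each class by the Ad-GFP mean, with a dot for each sample, a short line at each group mean and a triangle at the lower edge for a sample at 0. The Ad-hHIF2 dots of Lamb1 and Lama3 sit well above the other 6 samples and those of Itgb7 below them, while the Ad-hHIF1 dots stay near those of Ad-GFP.

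Lamb1, the beta chain shared by most laminins of epithelium and of early tissue, showed the largest change of the family. It was at 202, 198 and 187 CPM in the Ad-GFP samples, 820.4, 826 and 795 CPM in the Ad-hHIF2 samples and 204, 201 and 213 CPM in the Ad-hHIF1 samples. The 3 Ad-hHIF2 samples were far above the other 6, and the Ad-GFP and Ad-hHIF1 samples overlapped. Lamb1 was 4.18-fold higher in Ad-hHIF2 than in Ad-GFP organoids (log2 fold change 2.06, standard error 0.0786, adjusted p = 7.57e-07, edgeR). The gene lies at chr12:31265234-31329644 on the plus strand of GRCm38. Lamb1 kept its call in every alternative setting, with log2 fold changes from 1.90 to 2.33.

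The chains Lama3 and Lamb3 of the hemidesmosomal laminin did not move together. Lama3, its alpha chain, was at 25.2, 23.4 and 24.8 CPM with Ad-GFP, 72.2, 72.6 and 71.4 CPM with Ad-hHIF2 and 22.02, 25.1 and 24.7 CPM with Ad-hHIF1. All Ad-hHIF2 samples were above all others, and the rise over Ad-GFP was 2.95-fold (log2 fold change 1.56, standard error 0.0672, adjusted p = 1.46e-06, edgeR). Lamb3, its beta chain, was at 85.8, 80.1 and 79.2 CPM with Ad-GFP, 69.4, 78.3 and 67.3 CPM with Ad-hHIF2 and 78.3, 67.04 and 80.6 CPM with Ad-hHIF1. All 3 Ad-hHIF2 values were slightly below those of Ad-GFP, and the difference did not pass the test (log2 fold change -0.18, standard error 0.0829, adjusted p = 0.131, edgeR). An antisense transcript, Gm29200, overlaps Lama3 exons by up to 197 bases and did not exceed 0.582 CPM, and whether the counting used the strand is not given in the sources used here.

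Of the chains that make the broad epithelial laminins, Lama5 was the most abundant member of the family. Its level was 1511, 1413 and 1364 CPM with Ad-GFP, 1771, 1786 and 1754 CPM with Ad-hHIF2 and 1417, 1210 and 1362 CPM with Ad-hHIF1. The Ad-hHIF2 samples were close together and above the other 6, and the rise over Ad-GFP was 1.24-fold (log2 fold change 0.31, standard error 0.0816, adjusted p = 0.0203, edgeR). Lamb2, the alternative beta chain, was at 69.05, 67.3 and 57.5 CPM with Ad-GFP, 84.99, 86.2 and 81.4 CPM with Ad-hHIF2 and 58.3, 54.4 and 62.5 CPM with Ad-hHIF1. It rose 1.31-fold over Ad-GFP (log2 fold change 0.39, standard error 0.0843, adjusted p = 0.00971, edgeR), again with the Ad-hHIF2 samples above the other 6. The Lamb2 call was lost by limma on log2(CPM per kb + 0.1) (log2 fold change 0.21, adjusted p = 0.25). It was also lost by limma on log2(TPM + 1) (adjusted p = 0.246) and log2(TPM + 0.1) (0.245). Lamc1, the gamma chain of these laminins, was at 92.9, 82.98 and 95.6 CPM with Ad-GFP, 81.4, 73.7 and 74.8 CPM with Ad-hHIF2 and 81.8, 81.4 and 85.8 CPM with Ad-hHIF1. Every Ad-hHIF2 value of Lamc1 was below every Ad-GFP value, but the difference missed the threshold (log2 fold change -0.24, standard error 0.0821, adjusted p = 0.061, edgeR). It passed without Ad-GFP replicate 3 (adjusted p = 0.0438, edgeR), in the fit of all 9 samples (0.0428, edgeR), in DESeq2 (0.0388) and in limma-voom (0.0447). Its direction turned, without a call, with library totals (log2 fold change 0.031), on log2(TPM + 1) (0.099) and on log2(TPM + 0.1) (0.12). The Lama5 call was lost without Ad-GFP replicate 3 (adjusted p = 0.0854), Ad-hHIF2 replicate 3 (0.0691) or Ad-hHIF2 replicate 4 (0.0537) in the same edgeR test.

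Because the chains changed unequally, their counts were also set against each other within each library, which needs no scaling between libraries. Counts of Lamb1 relative to Lamc1 were 2.17, 2.38 and 1.96 in the Ad-GFP samples, 10.1, 11.2 and 10.6 in the Ad-hHIF2 samples and 2.501, 2.47 and 2.48 in the Ad-hHIF1 samples. For Lama3 relative to Lamb3 they were 0.294, 0.292 and 0.313, 1.04, 0.927 and 1.06 and 0.281, 0.375 and 0.306 in the same order of groups. In both of these ratios all Ad-hHIF2 samples were above the other 6, which shows unequal change and not that either chain was constant. The pairs were chosen with the changes known, so these ratios are a description without a test.

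**Figure D2:**
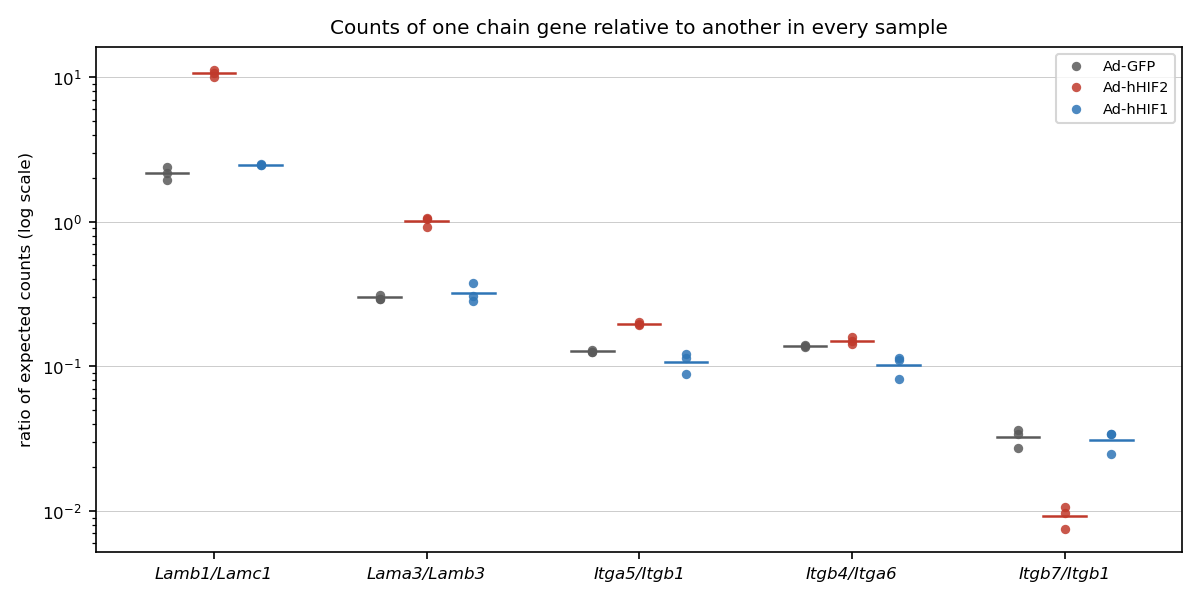
Ratio of expected counts between pairs of chain genes on a log scale, with a dot for each sample and a short line at each group mean. Lamb1 relative to Lamc1 lies between 10.1 and 11.2 in the Ad-hHIF2 samples and between 1.96 and 2.50 in the other 6, and Itgb7 relative to Itgb1 is lowest in the Ad-hHIF2 samples.

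Lamb1, Itga5 and Itgb7 are shown with the sequence upstream of their starts, since they carried the largest rise of a laminin, the rise of an integrin with the smallest p and the firmest fall, and HIF dimers bind the letters ACGTG or GCGTG. The stretches below run 5′ to 3′ from 250 to 101 bases before the RefSeq gene start, on the gene's strand, from RefSeq (GRCm38.p6), with capitals where either motif was found on either strand. The RefSeq starts differ from the ends of the gene positions given elsewhere, which are from GENCODE, and lie at base 31265293 of chromosome 12 for Lamb1 and at bases 103366791 and 102231935 of chromosome 15 for Itga5 and Itgb7.
Lamb1, chr12:31265043-31265192, plus strand: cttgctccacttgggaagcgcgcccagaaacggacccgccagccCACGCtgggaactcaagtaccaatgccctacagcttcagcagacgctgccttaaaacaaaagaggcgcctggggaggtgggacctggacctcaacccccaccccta
Itga5, chr15:103366892-103367041, minus strand: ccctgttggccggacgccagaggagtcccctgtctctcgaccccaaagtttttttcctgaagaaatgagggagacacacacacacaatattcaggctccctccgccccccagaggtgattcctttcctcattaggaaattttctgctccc
Itgb7, chr15:102232036-102232185, minus strand: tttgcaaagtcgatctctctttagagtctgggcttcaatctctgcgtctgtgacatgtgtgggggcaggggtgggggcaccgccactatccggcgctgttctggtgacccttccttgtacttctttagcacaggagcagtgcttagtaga
Lamb1 had 1 match in its window from 250 bases before to 50 bases after the RefSeq start, CACGC, which is GCGTG on the other strand and begins 206 bases before that start. The Itga5 and Itgb7 windows held none. RefSeq held 26 windows for 23 members, and 7 of the 26 windows had a match (26.9%), beside 43.8% of all 32851 windows of the same length. Among the members, the others with a match were Lamb3, Itga2, Itga4, Itga9, Itgax and Itgb5, of which Itga2 and Itga4 were called in Ad-hHIF2 organoids. A match describes the letters and not binding, and the absence of a match applies to these windows only. Lama3 was not matched to a window.

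Among the integrin alpha chains, Itga5, Itgav, Itga6, Itga7 and Itga2 were called higher in Ad-hHIF2 organoids and Itga4 lower. Itga5, which pairs with Itgb1 as the main fibronectin receptor and lies at chr15:103344286-103366763 on the minus strand, was at 31.7, 31.01 and 28.9 CPM with Ad-GFP. It was at 57.3, 53.4 and 53.5 CPM with Ad-hHIF2 and 31.8, 26.1 and 30.99 CPM with Ad-hHIF1. The Ad-hHIF2 samples were separate from the rest, and the rise over Ad-GFP was 1.79-fold (log2 fold change 0.84, standard error 0.0677, adjusted p = 5.31e-05, edgeR). Itgav, which pairs with several beta chains and binds fibronectin and vitronectin, was at 199, 205 and 168 CPM with Ad-GFP, 287, 286 and 256 CPM with Ad-hHIF2 and 215, 230.4 and 208 CPM with Ad-hHIF1. It rose 1.45-fold over Ad-GFP (log2 fold change 0.54, standard error 0.0957, adjusted p = 0.00367, edgeR), and its overlapping antisense transcript Gm13684 did not exceed 2.55 CPM.

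Of the laminin receptor chains, Itga6 and Itga7 rose and Itga3 did not pass the test. Itga6, which pairs with Itgb4 in hemidesmosomes and with Itgb1 elsewhere, was at 196, 188 and 191 CPM with Ad-GFP, 245, 246 and 235 CPM with Ad-hHIF2 and 193, 206 and 192 CPM with Ad-hHIF1. The rise over Ad-GFP was 1.27-fold (log2 fold change 0.34, standard error 0.0710, adjusted p = 0.00796, edgeR). All Ad-hHIF2 samples lay above all others, while the Ad-GFP and Ad-hHIF1 samples overlapped. Itga3, the other main laminin receptor chain of epithelium, was at 274, 269 and 277 CPM with Ad-GFP, 307, 303 and 310.3 CPM with Ad-hHIF2 and 262, 258 and 258 CPM with Ad-hHIF1. All 3 Ad-hHIF2 values were the highest, yet the difference from Ad-GFP did not pass (log2 fold change 0.17, standard error 0.0711, adjusted p = 0.107, edgeR), while DESeq2 (adjusted p = 0.0458) and limma-voom (0.0314) called it. Itga7, a laminin receptor chain known from muscle, was low at 1.48, 2.58 and 2.599 CPM with Ad-GFP, 4.99, 4.71 and 4.98 CPM with Ad-hHIF2 and 2.36, 2.28 and 3.17 CPM with Ad-hHIF1. Its rise of 2.23-fold passed (log2 fold change 1.16, standard error 0.236, adjusted p = 0.00718, edgeR), with every Ad-hHIF2 sample above every other sample.

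Of the collagen receptor chains, Itga2 passed the test narrowly and Itga1 and Itga10 did not pass. Itga2, abundant in epithelium, was at 98.6, 89.4 and 108 CPM with Ad-GFP, 117, 119 and 119 CPM with Ad-hHIF2 and 108, 96.3 and 105 CPM with Ad-hHIF1. The Ad-hHIF2 samples were above the other 6, and the rise over Ad-GFP was small (log2 fold change 0.27, standard error 0.0862, adjusted p = 0.0474, edgeR). Its call was lost when any sample other than Ad-GFP replicate 4 was left out, with adjusted p from 0.0713 (without Ad-hHIF2 replicate 1) to 0.155 (without Ad-GFP replicate 3) in edgeR, the others being Ad-GFP replicate 1 and Ad-hHIF2 replicates 3 and 4. Itga1 was at 7.87, 4.74 and 7.998 CPM with Ad-GFP, 4.82, 5.06 and 5.21 CPM with Ad-hHIF2 and 7.68, 7.31 and 7.34 CPM with Ad-hHIF1. Ad-GFP replicate 3 lay among the Ad-hHIF2 samples, and the difference did not pass with it (log2 fold change -0.44, standard error 0.204, adjusted p = 0.142, edgeR) but passed without it, with -0.66 on the log2 scale (adjusted p = 0.0143, edgeR). Itga10 was between 0 and 0.847 CPM in all 9 samples and not called.

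Of the integrin beta chains, the epithelial Itgb4 and Itgb6 rose and Itgb7 fell. Itgb4, the hemidesmosome chain that binds laminin together with Itga6, was at 27.4, 25.9 and 25.7 CPM with Ad-GFP, 38.9, 37.1 and 33.3 CPM with Ad-hHIF2 and 21.9, 16.9 and 21.2 CPM with Ad-hHIF1. The 3 groups did not overlap, and the rise of Ad-hHIF2 over Ad-GFP was 1.39-fold (log2 fold change 0.47, standard error 0.0766, adjusted p = 0.00238, edgeR). Itgb6, an epithelial partner of Itgav that activates latent TGF-β, was at 3.99, 3.83 and 2.95 CPM with Ad-GFP, 6.88, 6.81 and 6.34 CPM with Ad-hHIF2 and 4.07, 4.204 and 3.84 CPM with Ad-hHIF1. It rose 1.85-fold (log2 fold change 0.89, standard error 0.154, adjusted p = 0.00329, edgeR), with every Ad-hHIF2 sample above every other sample. The Itgb6 call was lost by limma on log2(CPM per kb + 0.1) (log2 fold change 0.60, adjusted p = 0.128). It was also lost by limma on log2(TPM + 1) (adjusted p = 0.0515) and log2(TPM + 0.1) (0.0931). Itgb1, the partner of most alpha chains, was at 251, 240.2 and 231 CPM with Ad-GFP, 284, 279 and 274 CPM with Ad-hHIF2 and 264, 298 and 273 CPM with Ad-hHIF1. Its samples with either HIF lay above those with Ad-GFP, and the Ad-hHIF2 difference just missed the threshold (log2 fold change 0.22, standard error 0.0731, adjusted p = 0.0545, edgeR), while DESeq2 gave an adjusted p of 0.0116. Itgb5, a vitronectin receptor chain, overlapped across all groups, with means of 58.1 ± 5.13 CPM for Ad-GFP, 58.4 ± 2.42 CPM for Ad-hHIF2 and 55.8 ± 3.13 CPM for Ad-hHIF1 (SD, n = 3). Itgb3 was at 23.2, 23.9 and 30.1 CPM with Ad-GFP, 30.04, 30.9 and 33.9 CPM with Ad-hHIF2 and 24.4, 27.1 and 24.6 CPM with Ad-hHIF1. One Ad-GFP value, replicate 4, lay among those of Ad-hHIF2, and the difference from Ad-GFP did not pass (log2 fold change 0.30, standard error 0.1104, adjusted p = 0.0697, edgeR). It passed without that sample (adjusted p = 0.00503, edgeR) and in 5 other alternatives, with adjusted p from 0.00733 (edgeR without a count filter) to 0.0414 (limma-voom).

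Itgb7 and Itga4, which pair on lymphocytes that home to the gut, were the members called lower. Itgb7, at chr15:102215995-102231944 on the minus strand, was at 9.18, 8.12 and 6.298 CPM with Ad-GFP, 3.02, 2.69 and 2.04 CPM with Ad-hHIF2 and 9.02, 7.36 and 9.28 CPM with Ad-hHIF1. The Ad-hHIF2 samples were all below the other 6, 3.03-fold lower than Ad-GFP (log2 fold change -1.60, standard error 0.199, adjusted p = 0.000586, edgeR). Itga4 was at 1.58, 3.24 and 2.45 CPM with Ad-GFP, 1.098, 0.844 and 1.39 CPM with Ad-hHIF2 and 1.89, 4.64 and 1.46 CPM with Ad-hHIF1. It was 2.19-fold lower than Ad-GFP (log2 fold change -1.13, standard error 0.344, adjusted p = 0.0376, edgeR), and its call was lost without Ad-GFP replicate 3 (adjusted p = 0.148) or 4 (0.0581) and without Ad-hHIF2 replicate 1 (0.103), 3 (0.124) or 4 (0.0529). Itga4 counts were not whole numbers in any sample, so reads may have been shared with other genes, which was not measured. Cerkl on the opposite strand, which overlaps Itga4 exons by up to 905 bases, did not exceed 0.281 CPM. The summed level of the 1625 receptor genes taken as normally silent moved in the same direction, at 83.9, 131 and 148 CPM with Ad-GFP and 30.7, 48.5 and 66.7 CPM with Ad-hHIF2. These sums did not overlap, so as a covariate they also take up part of the difference between the arms. In a fit of all 9 samples Itga4 was not called (log2 fold change -1.14, adjusted p = 0.0997, edgeR), and with this sum as a covariate in that fit its log2 fold change was -0.34 (adjusted p = 0.577, edgeR). The covariate moved the log2 fold changes against Ad-GFP from 0.26 to 0.23 for Itga2, from 0.31 to 0.23 for Lama5 and from 0.38 to 0.28 for Lamb2, which were called in the fit of all 9 samples and not with the covariate (adjusted p = 0.154, 0.126 and 0.0579, edgeR). Lamc1 was likewise called lower in that fit and not with the covariate. With the covariate Itgb3 was called higher (adjusted p = 0.0292, edgeR) and Lamb3 lower (0.047), and Itgb7 kept its call. The cause of these changes was not tested. By limma on log2(TPM + 1) and log2(TPM + 0.1) the Itgb7 call was lost (log2 fold change -0.24 and -0.85, adjusted p = 0.0746 and 0.0737).

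Leukocyte markers were measured beside Itgb7, Itga4 and Itgb2, and 6 of 10 stayed below 1 CPM in every Ad-GFP sample. Their summed level was 14.8 to 20.7 CPM with Ad-GFP, 14.6 to 19.4 CPM with Ad-hHIF2 and 12.5 to 17.2 CPM with Ad-hHIF1. Most of it was Cd68, which was between 7.97 and 14.8 CPM, while the T cell marker Cd3e did not exceed 0.307 CPM and the pan-leukocyte marker Ptprc 1.15 CPM. Itgb2, the beta chain of leukocyte integrins, was at 0.574, 0.471 and 1.25 CPM with Ad-GFP and 0.114, 0.353 and 0.129 CPM with Ad-hHIF2, and the difference did not pass (log2 fold change -1.83, standard error 0.629, adjusted p = 0.0573, edgeR), although it did without Ad-hHIF2 replicate 3 (adjusted p = 0.0494, edgeR), with library totals only (0.0484, edgeR) and in DESeq2 (0.0272). Itgb8 did not exceed 1.1 CPM and Itga2b, the platelet chain, 1.97 CPM, and neither was called in any comparison. In these bulk libraries, fewer cells of a type and less RNA per cell cannot be told apart. The 12 members without enough counts were Itga8, Itga9, Itga11, Itgad, Itgae, Itgal, Itgam, Itgax, Lama1, Lama2, Lama4 and Lamc3, which include leukocyte, muscle and mesenchymal chains. The highest value of any of them in any sample was 0.657 CPM, for Itgam.

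The fibroblast list was measured too, since mesenchyme makes much of the laminin of whole intestine. Of its 12 markers, 7 stayed below 1 CPM in every sample of each group. Vim alone was between 1005 and 1810 CPM, so that the list summed to 1124 to 1154 CPM with Ad-GFP, 1737 to 1821 CPM with Ad-hHIF2 and 1018 to 1107 CPM with Ad-hHIF1. Without Vim the other 11 summed to 13.3 to 19.7 CPM with Ad-GFP, 10.7 to 13.8 CPM with Ad-hHIF2 and 11.1 to 21.2 CPM with Ad-hHIF1. Thus Vim was higher in the Ad-hHIF2 samples, as were Lamb1, Lama3, Lama5 and Lamb2 but not Lamb3 or Lamc1. The sum of the other 11 fibroblast markers was not higher there. The part of Vim or of these markers in the laminin values was not tested.

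In Ad-hHIF1 organoids, no member was called against Ad-GFP. Of the 25 members tested, 0 were called by edgeR, as were 0% of all 15233 genes tested, and 0 members were called in any alternative. Over all genes, DESeq2 called 68 higher and 76 lower, limma-voom 4 and 1, and edgeR without a count filter 258 and 126. At an unadjusted p below 0.05 there were 2 members, Itgb1 and Itgb4, beside 8.59% of all genes. The groups did not overlap for 2 members that were higher, Itgb1 and Itgav, beside 8.38% of all genes, and for 2 that were lower, Itgb4 and Itga3, beside 9.06%. Itgb4 had the smallest adjusted p (log2 fold change -0.39, standard error 0.1102, adjusted p = 0.491, edgeR), and its 3 Ad-hHIF1 values given above were all below those of Ad-GFP. Itgb1 was higher in 3 of 3 Ad-hHIF1 samples without passing the adjustment (log2 fold change 0.21, standard error 0.08199, adjusted p = 0.573, edgeR). For Lamb1 the log2 difference from Ad-GFP was 0.08 ± 0.0744 (standard error; edgeR's adjusted p = 0.777), and for Lama3 it was -0.03 ± 0.0849 (adjusted p = 0.922, edgeR). A p that misses the threshold does not show that the chains were equal, but these standard errors are much smaller than the Lamb1 and Lama3 changes in Ad-hHIF2 organoids.

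The direct comparison of both HIFs gives the difference itself, in a fit of all 9 samples. Against Ad-hHIF1, 13 members were higher with Ad-hHIF2, beside 13.7% of 15556 genes tested, and 2 were lower, Itgb7 and Itga1, beside 12.0%. With at least a 2-fold change, 2 members were higher, Lamb1 and Lama3, beside 2.42% of all genes, and 1 was lower, Itgb7, beside 3.70%. The Ad-hHIF2 samples lay above all Ad-hHIF1 samples for 14 members, beside 22.7% of all genes, and below them for 3, beside 19.1%. The comparison shares its Ad-hHIF2 samples with the one against Ad-GFP, so the lists of members are not independent of each other. Lamb1 was 3.95-fold higher (log2 fold change 1.98, standard error 0.0712, adjusted p = 6.4e-08, edgeR) and Lama3 3.01-fold (log2 fold change 1.59, standard error 0.0698, adjusted p = 2.71e-07, edgeR). Itga5 was 1.84-fold higher (log2 fold change 0.88, standard error 0.0832, adjusted p = 4.13e-05, edgeR) and Itgb4 1.82-fold (log2 fold change 0.86, standard error 0.103, adjusted p = 0.000204, edgeR).

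Among the smaller differences between the HIFs, Itgb6, Lamb2 and Lama5 were higher with Ad-hHIF2 by log2 fold changes of 0.73, 0.53 and 0.41, and their adjusted p in edgeR ran from 0.00143 to 0.00651. Itga6 (log2 fold change 0.30, adjusted p = 0.00871), Itga7 (0.90, 0.0217), Itgav (0.34, 0.0214), Itga3 (0.24, 0.0184) and Itgb3 (0.32, 0.0473) were called higher and Itga1 (-0.57, 0.0482) lower by the same test. Itgb7 was 3.299-fold lower (log2 fold change -1.72, standard error 0.194, adjusted p = 0.00014, edgeR), and Itga4 did not pass (log2 fold change -1.25, standard error 0.459, adjusted p = 0.0714, edgeR), although it did without Ad-hHIF1 replicate 4 (adjusted p = 0.0335, edgeR), without a count filter (0.0064, edgeR) and in DESeq2 (0.0194). The calls of Itgb6, Lamb2, Lama5 and Itgb7 held with each sample left out in turn. Each was lost by limma on log2(TPM + 1) and log2(TPM + 0.1). With the background covariate, Itgb6 (adjusted p = 0.0531, edgeR) and Lama5 (0.0916) also lost their calls. Itgb6 lost it too by limma on log2(CPM per kb + 0.1) (adjusted p = 0.134). Other calls depended on single samples. The Itgb3 call was lost on leaving out any sample except Ad-GFP replicate 4, and the Itga1 call on leaving out any except Ad-GFP replicates 3 and 4. Itga7 lost its call without any of the Ad-hHIF2 samples or Ad-hHIF1 replicate 1 or 3, Itgav without Ad-hHIF2 replicate 1 or 3 or Ad-hHIF1 replicate 1 or 4, and Itga3 without Ad-hHIF2 replicate 3 or 4 or Ad-hHIF1 replicate 1 or 3. Itga6 lost it without Ad-hHIF1 replicate 1 (adjusted p = 0.0517, edgeR), and without that sample 9 members were called in all, 8 higher and 1 lower, beside 1596 higher and 1533 lower of 16339 genes. Without Ad-hHIF1 replicate 3, whose receptor sum stood apart, 10 were higher and 1 lower, beside 1757 and 1582 of 16158 genes, against 2137 and 1871 with every sample.

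**Figure D3:**
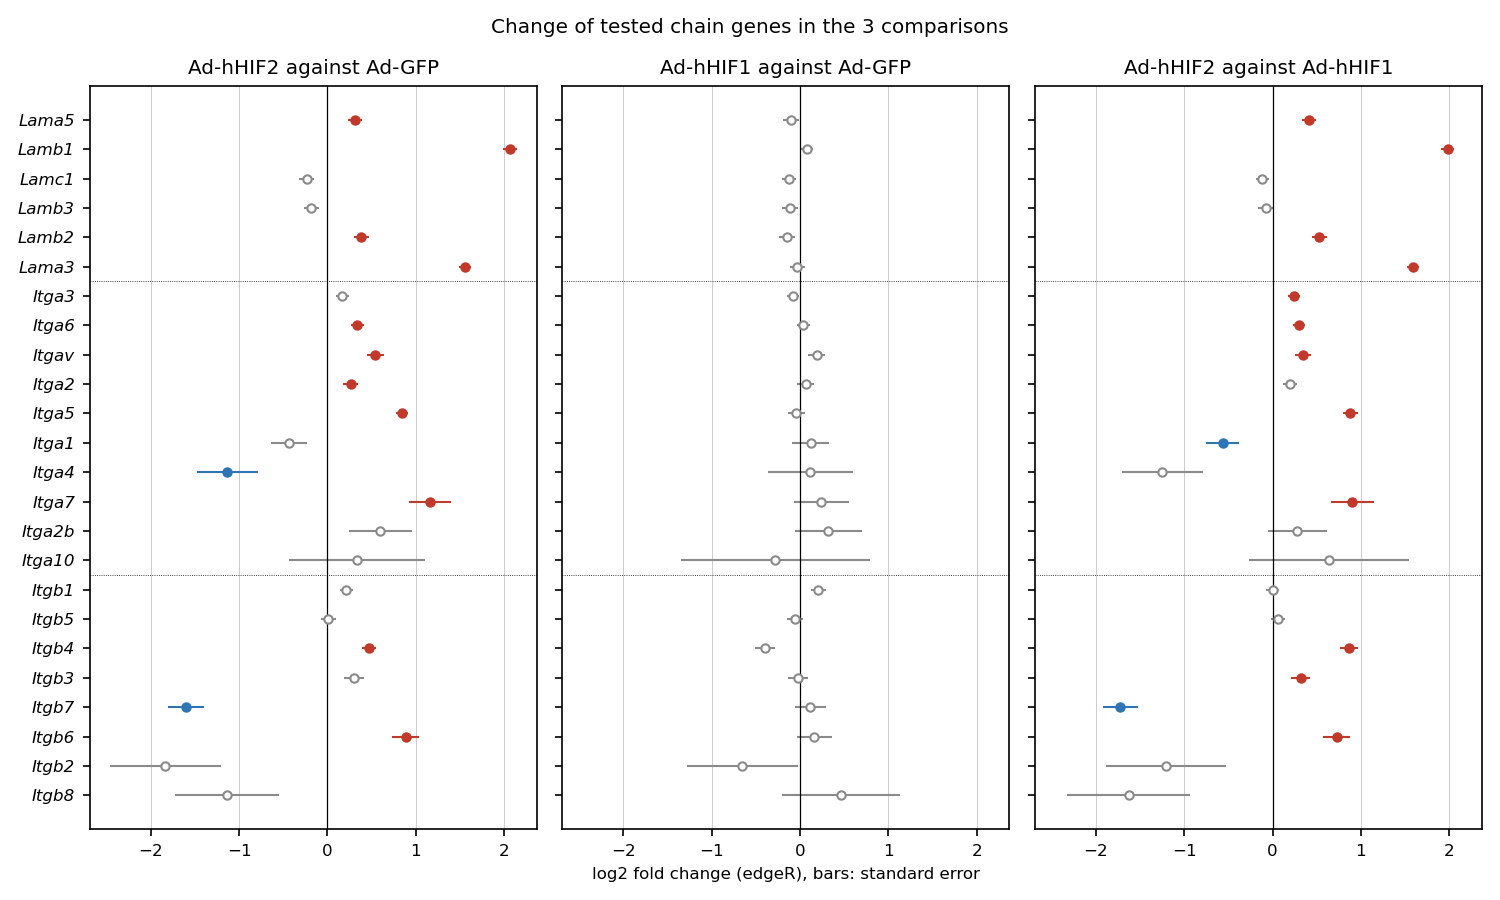
Log2 fold change (edgeR) with its standard error for tested members in the 3 comparisons, laminin chains above, integrin alpha chains in the middle and beta chains below, with filled red or blue points for members called higher or lower at an adjusted p below 0.05. The points for Ad-hHIF1 against Ad-GFP are all open, while Lamb1 reaches 2.06 and 1.98 in the other panels.

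Levels were compared between genes per kilobase of effective length. In Ad-GFP organoids Lama5 led the laminin chains at 243 ± 12.8 CPM per kb (SD, n = 3), followed by Lamb1 at 44.2 ± 1.74, Lamb2 at 24.7 ± 2.38, Lamb3 at 21.01 ± 0.915, Lamc1 at 19.7 ± 1.44 and Lama3 at 3.55 ± 0.1404 CPM per kb. The samples of Lamb2 and Lamb3 overlapped, as did those of Lamb3 and Lamc1. In Ad-hHIF2 organoids Lamb1 reached 184 ± 3.73 CPM per kb, against 301 ± 2.74 for Lama5 and 18.4 ± 1.502 for Lamb3. The Ad-hHIF1 order was that of Ad-GFP, from Lama5 at 226 ± 18.2 to Lama3 at 3.47 ± 0.244 CPM per kb. Among alpha chains Itgav, Itga6 and Itga3 were the highest in each group, at 67.2 ± 6.88, 66.2 ± 1.43 and 61.1 ± 0.911 CPM per kb with Ad-GFP, where the first pair overlapped. With Ad-hHIF2 these were at 97.4 ± 6.28, 83.5 ± 2.18 and 68.5 ± 0.829 CPM per kb and separate. Among beta chains Itgb1 led at 78.2 ± 3.21 CPM per kb with Ad-GFP, before Itgb5 at 19.8 ± 1.75, Itgb4 at 5.14 ± 0.178 and Itgb3 at 4.59 ± 0.678 CPM per kb, the last pair overlapping. Itgb7 stood above Itgb6 with Ad-GFP, at 3.14 ± 0.583 and 0.857 ± 0.134 CPM per kb, and below it with Ad-hHIF2, at 1.03 ± 0.199 and 1.59 ± 0.0704 CPM per kb. Effective lengths that the authors' software estimated differed between samples, and the mean over all samples was used.

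The genes that surround these chains were described by 4 lists, of integrin ligands and basement membrane proteins, integrin activation and focal adhesion, hemidesmosomes and other laminin receptors, and glycosylation and turnover. Against Ad-GFP, Ad-hHIF2 organoids had 12 higher and 3 lower of the 28 ligand and basement membrane genes tested, or 42.9% and 10.7% beside 15.9% and 13.6% of all genes, with a median log2 fold change of 0.18 against -0.01 over all genes. Nid1, the nidogen that links laminin to collagen IV, was at 102, 100.4 and 107 CPM with Ad-GFP, 233, 212 and 247 CPM with Ad-hHIF2 and 107, 103 and 102 CPM with Ad-hHIF1 (log2 fold change against Ad-GFP 1.17, standard error 0.0833, adjusted p = 3.01e-05, edgeR). Its relative Nid2 was low, at 0.819 ± 0.1604 CPM with Ad-GFP and 2.40 ± 0.514 CPM with Ad-hHIF2 (SD, n = 3), and rose 2.96-fold (adjusted p = 0.00578, edgeR). Fn1, fibronectin and thus the ligand of Itga5, was at 847 ± 20.01 CPM with Ad-GFP and 1833 ± 116 CPM with Ad-hHIF2 (SD, n = 3), 2.17-fold higher (adjusted p = 3.64e-05, edgeR). The matricellular ligand Thbs1 was at 133 ± 7.31 CPM with Ad-GFP, 214 ± 4.12 CPM with Ad-hHIF2 and 100.5 ± 2.08 CPM with Ad-hHIF1 (SD, n = 3), and the Ad-hHIF1 samples were all below those of Ad-GFP. With Ad-hHIF2 it was 1.62-fold higher than with Ad-GFP (adjusted p = 0.000311, edgeR) and 2.13-fold higher than with Ad-hHIF1 (adjusted p = 2.62e-06, edgeR). The RGD ligand Spp1, osteopontin, was 1.94-fold lower than with Ad-GFP (adjusted p = 0.000133, edgeR) and 2.09-fold lower than with Ad-hHIF1 (adjusted p = 7.82e-06, edgeR).

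Inside the cell, the 44 activation and focal adhesion genes tested had 16 higher and 6 lower with Ad-hHIF2, or 36.4% and 13.6% beside 15.9% and 13.6% of all genes, at a median log2 fold change of 0.18. Nedd9, a docking protein of focal adhesions, rose 6.47-fold, from 47.2, 48.0 and 54.5 CPM to 343, 308 and 314 CPM (adjusted p = 4.91e-07, edgeR). Kindlins activate integrins through their beta chain. Fermt2, the kindlin known from mesenchyme, rose 2.92-fold from 12.1, 10.8 and 7.598 CPM to 31.8, 28.02 and 29.8 CPM (adjusted p = 0.000141, edgeR), and Fermt1, the epithelial kindlin, singled out after its values were seen, was 1.67-fold lower (adjusted p = 0.000463, edgeR). The third kindlin, Fermt3, did not exceed 0.665 CPM and was not called (log2 fold change 0.06, standard error 0.674, adjusted p = 0.958, edgeR). Talin, Tln1, which links beta chains to actin, was at 183 ± 16.2 CPM with Ad-GFP and 262 ± 6.04 CPM with Ad-hHIF2 (SD, n = 3), 1.44-fold higher (adjusted p = 0.00232, edgeR). Ptk2, focal adhesion kinase, was at 54.7 ± 6.66, 48.4 ± 0.802 and 61.6 ± 5.55 CPM in Ad-GFP, Ad-hHIF2 and Ad-hHIF1 organoids (SD, n = 3), and was called lower only between the HIFs (log2 fold change -0.35, adjusted p = 0.0254, edgeR). The Ptk2 call was lost without any of the Ad-hHIF2 samples or Ad-hHIF1 replicate 3 or 4 (adjusted p from 0.0592 to 0.0897, edgeR), and with library totals only the log2 fold change was -0.16 (adjusted p = 0.53, edgeR).

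Of 15 tested entries of hemidesmosome and other laminin receptor genes, 3 rose with Ad-hHIF2 (Sdc4, Bcam and Dag1) and 1 fell (Rpsa), with 0 past 2-fold. That is 20% and 6.67% of these entries, beside the same 15.9% and 13.6%. Dst, whose symbol was not unique, was counted more than once among them. Dag1, dystroglycan, was at 54.98, 51.97 and 53.2 CPM with Ad-GFP and 71.4, 69.9 and 76.6 CPM with Ad-hHIF2 (log2 fold change 0.45, standard error 0.0711, adjusted p = 0.00214, edgeR). Rpsa encodes a ribosomal protein that is also known as a laminin receptor and was 1.51-fold lower (adjusted p = 0.0023, edgeR), a call lost with library totals only (log2 fold change -0.35, adjusted p = 0.134, edgeR). Cd151, the tetraspanin that binds laminin-receptor integrins, was at 95.1 ± 8.54 CPM with Ad-GFP, 93.8 ± 9.51 CPM with Ad-hHIF2 and 98.6 ± 7.502 CPM with Ad-hHIF1 (SD, n = 3), with overlapping groups. Of 19 glycosylation and turnover genes, 5 were higher and 3 lower, or 26.3% and 15.8%. Adam10, a membrane metalloprotease, rose 2.68-fold from 29.3, 33.9 and 32.6 CPM to 81.6, 80.1 and 94.3 CPM (adjusted p = 1.76e-05, edgeR), and Pcsk6, a proprotein convertase, rose 2.51-fold from 26.9, 24.2 and 20.9 CPM to 60.3, 60.5 and 59.99 CPM (adjusted p = 2.55e-05, edgeR). Plaur, the urokinase receptor, was 2.01-fold lower, at 30.4 ± 2.39 CPM against 61.4 ± 7.71 CPM (SD, n = 3, adjusted p = 0.000222, edgeR). In Ad-hHIF1 organoids, 0 genes of any of the 4 lists were called against Ad-GFP by edgeR.

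**Figure D4:**
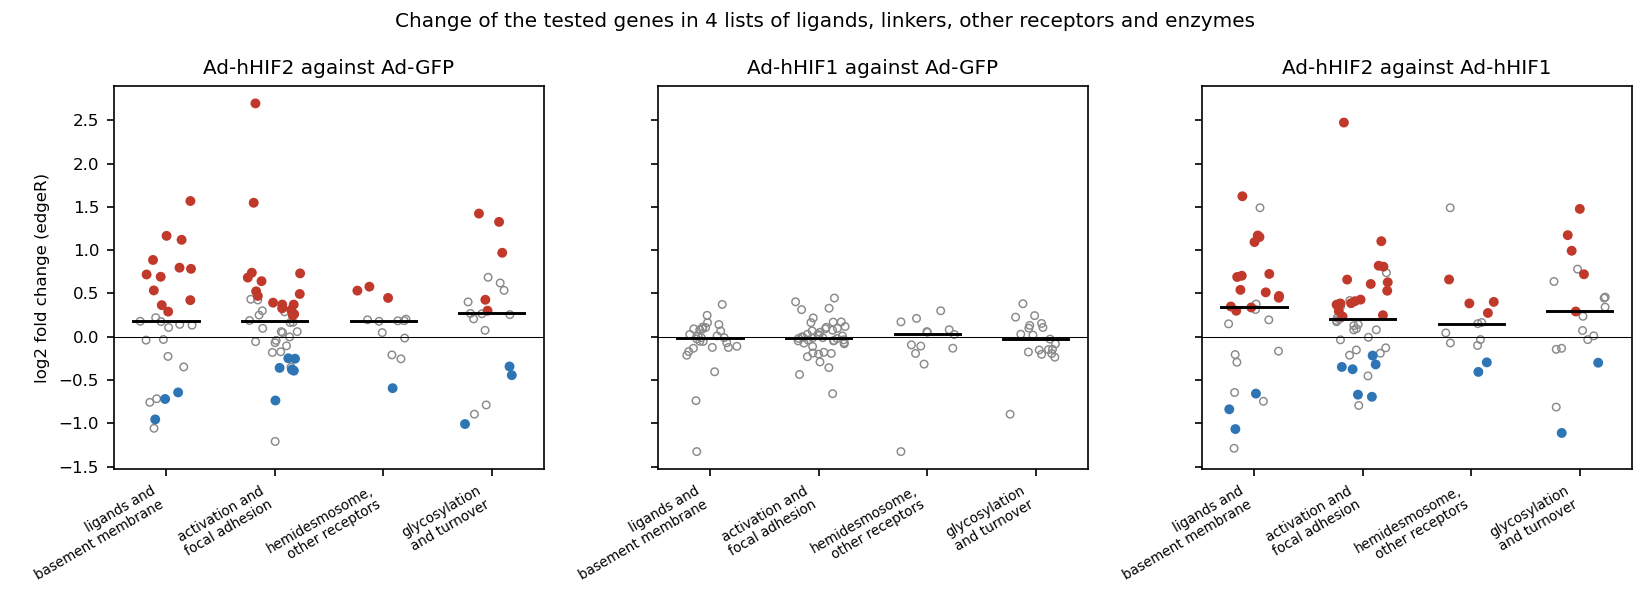
Log2 fold change (edgeR) of the tested genes of the 4 lists in the 3 comparisons, without Dst and Itgb1bp1, whose symbols were not unique. Points are filled red or blue where called higher or lower at an adjusted p below 0.05 and open otherwise. A black line marks the median of the genes drawn in each list. In the ligand list 12 genes are red and 3 blue for Ad-hHIF2 against Ad-GFP, and every point is open for Ad-hHIF1 against Ad-GFP.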

How the data were processed

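RNA sequencing of 9 organoid cultures was used. The authors removed low-quality reads and estimated abundances with RSEM, named in the submitters' processing notes. The aligner, genome build, annotation and strandedness are not given in the sources used here. The deposited expected counts are estimated counts per gene and are not normalized. The deposited TPM values, which RSEM scales by effective length and to the library, were used in alternatives. Of the expected counts, 85.7% were whole, and 27 of the 37 members had whole counts in every sample, so reads shared between genes can affect the others. Members were found by symbol, and their positions came from GENCODE M21 (GRCm38) by Ensembl identifier for all 37. Members and lists were chosen with earlier results of these data known. The values of 1 tested member, which stays in the counts and medians, are not reported here. The others are all named, and those called in any comparison or best known from epithelium have values in every sample. From each list, genes called with at least a 2-fold change are named, with Fn1, Dag1, Cd151, Ptk2 and Tln1 added. Fermt1, Fermt3, Rpsa, Sdc4 and Bcam were named after their values were seen.

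The expected counts, rounded to integers, were filtered (filterByExpr) and scaled with TMM factors, and differences were assessed by the quasi-likelihood F test of edgeR 4.0.16 (with limma 3.58.1 under R 4.3.3). P-values were adjusted by Benjamini-Hochberg over all genes tested. A fit of 6 samples served each HIF against Ad-GFP, and a fit of all 9 served the HIFs against each other. A standard error is the size of the log2 fold change divided by the square root of F. CPM used the TMM factors of all 9 samples. The study used EBSeq, which was not used here. Library totals were at least 21722618 counts, and the 12 members not tested had at most 21 counts in any sample. No library was a duplicate, the closest replicates having a chi-square per degree of freedom of 25.9. The alternatives changed the count filter (none, or a minimum of 10 counts throughout), the scaling (median-ratio factors or plain library totals), the tool (DESeq2 1.42.0, limma-voom, and limma on TPM with a pseudocount of 1 or 0.1 before log2), the samples fitted, the replicate number as a block, a background covariate, and single samples left out. Limma on log2(CPM per kb + 0.1) was added after seeing the data. Tables and figures were made with Python 3.11.15, pandas 2.3.3 and matplotlib 3.10.9.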

Additional observations from a re-analysis of the deposited data

How the results depend on the processing

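Of the 29 member changes called, 0 reversed in 567 recomputations, 451 kept their call and 116 lost it. Lamb1 and Lama3 in both Ad-hHIF2 comparisons, and Itga5 and Itga7 against Ad-GFP, kept it in every alternative. Against Ad-GFP, 14 members were called for Ad-hHIF2 and 4 by limma on log2(TPM + 1), as on log2(TPM + 0.1). These 4 were Lamb1, Lama3, Itga5 and Itga7. Itga6, Itgav, Itgb4 and Lama5 were among those that lost their calls on both scales. Their adjusted p by limma ran from 0.148 to 0.241 on log2(TPM + 1) and from 0.1 to 0.195 on log2(TPM + 0.1). Over all genes, 2381 were higher and 2035 lower, and 814 and 196 on log2(TPM + 1) and 899 and 210 on log2(TPM + 0.1). Past 2-fold there were 5 members, and 8 with library totals only, 2 on log2(TPM + 1) and 3 on log2(TPM + 0.1). Between the HIFs, 15 were called, and 2 on log2(TPM + 1), 3 on log2(TPM + 0.1) and 9 with the background covariate, while the calls over all genes went from 2137 higher and 1871 lower to 315 and 52, 381 and 79, and 1195 and 1101 in the same order. Past 2-fold there were 3 members, and 6 with library totals only. Leaving out single samples gave 11 to 14 members against Ad-GFP (4 to 5 past 2-fold) and 9 to 15 between the HIFs (3 to 5 past 2-fold, 5 without Ad-hHIF1 replicate 4). Limma on log2(CPM per kb + 0.1), added after seeing the data, called 10 members against Ad-GFP and 11 between the HIFs. Over all genes it called 1395 higher and 1472 lower, and 1293 and 1259, in the same order. Against Ad-GFP, Itga2 (adjusted p = 0.0781), Itga4 (0.0642), Itgb6 and Lamb2 were among those that lost their calls in it. The list gene Tln1 (0.311) also lost its call, while Lamc1 gained one (0.0315). For Ad-hHIF1 against Ad-GFP the count of members called was 0 in every alternative. Library totals moved the median log2 fold change of all genes to 0.24 against Ad-GFP, where 3491 genes were then higher and 828 lower, in place of 2381 and 2035, and to 0.17 between the HIFs, so changes below these sizes depend on the scaling. Lamb3 and Lamc1, lower but not called against Ad-GFP, became 0.069 and 0.031 with library totals, 0.20 and 0.099 on log2(TPM + 1), and 0.26 and 0.12 on log2(TPM + 0.1), on the log2 scale. Itga1 became 0.0081 and 0.034 on these TPM scales. The cause was not tested. Whether the replicate numbers pair the samples could not be settled with 3 samples in each arm. Between Ad-GFP and Ad-hHIF2, same-numbered samples correlated at 0.0822, 0.101 and 0.25, and differently numbered ones from -0.25 to 0.167. Between Ad-GFP and Ad-hHIF1 these were 0.184, 0.0695 and -0.147, and -0.342 to 0.305. Between the HIFs they were -0.105, -0.13 and -0.272, and -0.113 to 0.249. With the replicate block, 14 members were called against Ad-GFP, where Itga4 lost its call (adjusted p = 0.0531, edgeR) and Itgb3 gained one (0.0167), and 14 between the HIFs, where Itga1 lost its call (0.0618). Of the list genes named, Rpsa, Spp1, Plaur, Fermt1, Tln1, Dag1, Sdc4 and Bcam lost their calls against Ad-GFP by limma on log2(TPM + 1), with adjusted p from 0.0547 (Sdc4) to 0.821 (Rpsa), and Bcam also with the background covariate (0.195, edgeR). Depth limits low members most, with Itgb2 and Itgb8 at 4 to 25 counts per library.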

Other observations

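Before any scaling, the 37 members together held 0.298, 0.288 and 0.276% of all expected counts in the Ad-GFP samples, 0.581, 0.444 and 0.445% in the Ad-hHIF2 samples and 0.315, 0.266 and 0.315% in the Ad-hHIF1 samples. The share in Ad-hHIF2 replicate 1, the library with the highest TMM factor, was above that of the other Ad-hHIF2 samples. Goblet, Paneth, enteroendocrine and tuft cell markers, 9 genes in all, summed to 6.83 to 10.4 CPM with Ad-GFP, 3.36 to 4.204 CPM with Ad-hHIF2 and 4.91 to 7.14 CPM with Ad-hHIF1, and 8 absorptive enterocyte markers to 1.3 to 3.06, 4.85 to 5.47 and 2.58 to 3.24 CPM in the same order. The 6 stem and crypt markers, led by Sox9, summed to 6.65 to 13.4, 4.04 to 4.495 and 7.795 to 9.72 CPM, and the Ad-hHIF2 sums did not overlap those of the other groups. These sums were small beside the keratins, and no test was made on them.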
